A study of Homo sapiens with 12 samples.

Results

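Cathepsins are proteases that act mainly in lysosomes, and the 10 genes described here (CTSA, CTSB, CTSC, CTSD, CTSF, CTSH, CTSL, CTSS, CTSV and CTSZ) were taken by their symbols from tables of 28265 genes and 46178 m6A regions. All 10 were listed in the expression table, and 7 of them carried 25 m6A regions. The study treated HepG2 cells, a line established from a liver tumour, with toosendanin, a plant triterpenoid known for liver toxicity, and set them against cells labelled as control. N6-methyladenosine (m6A), a common internal mark of mRNA, was read by sequencing RNA pulled down with an antibody (IP) beside the RNA before the pull-down (input), with 3 IP and 3 input libraries per condition, 12 in total. Dose and duration of treatment are not stated, and all libraries come from the same cell line. Whether replicate libraries stem from separate cultures is not stated either, so the expression p-values reflect the spread between libraries alone, and this spread may be technical. The m6A p-values hold counting error only.

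Cathepsins are made as inactive precursors in the endoplasmic reticulum, tagged with mannose 6-phosphate in the Golgi and carried by receptors to the acidic lysosome, where they are cut into active enzymes. Most are cysteine proteases, while CTSD is an aspartic and CTSA a serine protease. In liver cells they break down proteins delivered by endocytosis and autophagy, and cystatins block cysteine cathepsins that escape into the cytosol or the medium. Genes of lysosomal enzymes are known targets of TFEB and TFE3, transcription factors that bind the hexamer CACGTG within a longer motif.

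The sequences just before the start sites are shown because they hold the hexamer in some of these genes and not in others. Promoters of 8 of the 10 genes were in the RefSeq table (GRCh38.p14), and those of CTSB and CTSS were not used here. Within 250 bases before and 50 bases after the start, CACGTG, which reads the same on both strands, stood in 3 of the 8 promoters (37.5%), those of CTSA, CTSD and CTSF, against 2548 of all 35116 promoters of that length (7.26%) and 9 of 38 promoters of other lysosomal hydrolases and peptidases (23.7%). The longer form TCACGTGA, which contains it, stood only in that of CTSA among the 8, against 0.98% of all promoters and 4 of the 38 other lysosomal ones (10.5%). The 130 bases before the start are printed 5′ to 3′ on the strand of the gene for CTSA (chr20:45891205-45891334, plus strand), CTSD (chr11:1763928-1764057, minus strand) and CTSF (chr11:66568607-66568736, minus strand), with CACGTG in capitals.
CTSA: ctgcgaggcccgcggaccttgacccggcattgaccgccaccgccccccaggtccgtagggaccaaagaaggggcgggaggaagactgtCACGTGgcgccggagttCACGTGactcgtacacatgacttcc
CTSD: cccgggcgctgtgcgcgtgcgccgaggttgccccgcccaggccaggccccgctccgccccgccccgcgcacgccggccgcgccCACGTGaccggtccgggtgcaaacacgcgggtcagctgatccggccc
CTSF: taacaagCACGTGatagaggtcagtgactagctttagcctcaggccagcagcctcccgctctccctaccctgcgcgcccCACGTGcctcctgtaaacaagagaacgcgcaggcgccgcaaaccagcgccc

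The hexamers of CTSA began 42 and 25 bases before the start, that of CTSD 47 bases before it, and those of CTSF 123 and 51 bases before it. CTSA and CTSD rose after toosendanin, CTSF was barely counted, and CTSL rose without the hexamer in its promoter. Also without it, CTSC and CTSV fell, and CTSH and CTSZ did not pass. The promoter of CTSB, which rose as well, was not searched, and a link of the hexamer to the changes was not tested. The second pair of promoters is shown because CTSL and CTSV, close relatives in sequence, moved in opposite directions. Their promoters shared the longest run of identical bases among the 28 pairs of the 8 promoters, 23 bases that begin 96 bases before the start of CTSL (chr9:87725989-87726118, plus strand) and 86 bases before that of CTSV (chr9:97039143-97039272, minus strand). The next longest run, between CTSD and CTSH, had 13 bases. The shared run is in capitals and holds CCAAT, the pentamer bound by NF-Y, which stood on either strand in 4 of the 8 promoters, against 34.6% of all promoters and 28.9% of the other lysosomal ones.
CTSL: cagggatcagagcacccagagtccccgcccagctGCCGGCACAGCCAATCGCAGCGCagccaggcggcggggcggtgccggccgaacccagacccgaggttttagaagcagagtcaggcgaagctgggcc
CTSV: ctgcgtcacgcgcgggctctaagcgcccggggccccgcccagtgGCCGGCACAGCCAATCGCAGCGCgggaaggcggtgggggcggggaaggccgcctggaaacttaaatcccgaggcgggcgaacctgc

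A match is a description of these letters and was not tested as a binding site.

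Values per library were not analysed here, so each gene has a mean normalized count over libraries and a deposited log2 fold change, printed with ± its standard error. Each region has counts that the authors summed over the libraries of each condition. Over all regions these sums came to 29094328 for toosendanin IP, 24253006 for toosendanin input, 42316089 for control IP and 34131862 for control input. Means grow with transcript length and are given as the evidence behind a value, not as levels to compare between genes. The cells carried transcripts of hepatocytes and of HepG2, with all 8 hepatocyte and 3 fetal liver markers counted. After toosendanin 3 hepatocyte markers were higher and 1 lower in the authors' deposited table, with log2 fold changes from -0.21 to 0.58 over the 8. All marker calls here are to be read against 15.7% of genes tested called higher and 15.7% lower at an adjusted p under 0.05. In the upper 50% of means these shares were 23.6% and 24.4%. Of the 3 fetal liver markers 2 were lower and 0 higher in the authors' deposited table, with changes from -0.46 to 0.14. Of 7 macrophage markers, PTPRC and MARCO were listed at 0 and CSF1R had a mean of 0.9, while CD68, also a lysosomal membrane protein, had 1426 and LYZ 49191. Of the 4 macrophage markers with an adjusted p, CD68 and CD163 (mean 4.231) were higher and LYZ lower after toosendanin in the authors' deposited table. Of 5 fibroblast markers 3 were listed at 0 and the others had means of at most 36.06, with PDGFRB lower at -2.25 ± 0.87 in the authors' deposited table. The 4 endothelial markers had means of at most 13.15, and of 4 cholangiocyte markers KRT7 and CFTR were listed at 0, while KRT19 had a mean of 9620 and SOX9 of 7784. KRT19 was lower at -0.55 ± 0.05 in the authors' deposited table, and SOX9 did not pass. Their part in the cathepsin results was not tested.

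Toosendanin raised the transcripts of 4 cathepsins, CTSB, CTSA, CTSD and CTSL, and lowered those of 2, CTSV and CTSC. At an adjusted p under 0.05 in the DESeq2 results of the authors' deposited table, these were 6 of the 9 cathepsins that have one (66.7%), against 31.4% of 16552 genes tested, and against 15.7% called higher and 15.7% called lower. CTSH, CTSS and CTSZ did not pass, and CTSF has no adjusted p. With a change of at least 2-fold, 2 were higher and 1 lower, against 3.84% and 3.46% of genes tested. The median log2 fold change of the 9 was 0.39 in the authors' deposited table, beside -0.00023 over all genes tested. In RNA from bulk cells a change per cell cannot be told apart from a change in the share of cells that make a transcript.

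CTSB, a cysteine protease that cuts both within chains and from their ends, had the largest rise among the 9. Its mean normalized count was 20350, above 98.97% of genes tested, and it stood at 1.57 ± 0.06 on the log2 scale in the authors' deposited table (adjusted p = 4.09e-151). That is 2.97-fold, with a 95% interval of 2.74 to 3.22, in the authors' deposited table, where 5.46% of genes tested rose by more. A second view of the same RNA came from the input counts summed over its m6A regions, which were 30288 in toosendanin cells and 13469 in control cells, or 1249 CPM in toosendanin cells and 394.6 CPM in control cells (counts per 1000000 input counts over all regions). Their log2 ratio, centred over genes, was 1.67 ± 0.01 (counting error only). Both measures put CTSB higher after toosendanin, though the input libraries may also be the ones behind the deposited table.

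CTSA, a serine carboxypeptidase that also shields the sialidase NEU1 and the beta-galactosidase GLB1 from breakdown, stood at 1.27 ± 0.08 in the authors' deposited table (adjusted p = 1.08e-48; mean normalized count 5858). Its summed inputs were 381 in toosendanin cells and 294 in control cells, with a centred log2 ratio of 0.87 ± 0.11 (counting error only), which is 0.40 below the deposited change. These regions hold few reads: CTSD, with a mean of 7897, had 3740 in toosendanin cells and 2754 in control cells. CTSA overlaps PLTP, a phospholipid transfer protein gene, in the reference annotation. PLTP, with a mean of 567.8, stood at 0.74 ± 0.13 in the authors' deposited table, and how reads shared by both genes were counted is not stated.

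CTSD, the main aspartic protease of lysosomes, stood at 0.92 ± 0.09 in the authors' deposited table (adjusted p = 3.64e-21), and its centred input ratio was 0.94 ± 0.04 (counting error only). CTSL, a cysteine protease with strong activity within chains, stood at 0.71 ± 0.07 in the authors' deposited table (adjusted p = 6.99e-25; mean normalized count 6011). Its summed inputs were 6773 in toosendanin cells and 6372 in control cells, a centred log2 ratio of 0.58 ± 0.03 (counting error only). CTSD overlaps PRADX, a long noncoding RNA gene, in the reference annotation.

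CTSV, a relative of CTSL known from thymus and testis, moved the other way, at -1.85 ± 0.39 in the authors' deposited table (adjusted p = 1.63e-05). Its mean normalized count was 73.36, and 3.66% of genes tested fell by more in the authors' deposited table. Its summed inputs were 28 in toosendanin cells and 136 in control cells, with a centred log2 ratio of -1.78 ± 0.30 (counting error only). The change of CTSL minus that of CTSV was 2.55 ± 0.39, with a 95% interval of 1.78 to 3.33, from the authors' deposited table; this pair was chosen after its values were seen. CTSL, CTSV and the pseudogene CTSLP2 resemble each other, so reads could be split or shared between them. CTSLP2 stood at -0.65 ± 0.32 with a mean of 101.9 in the authors' deposited table and did not pass (adjusted p = 0.107).

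CTSC, a dipeptidyl peptidase that activates the serine proteases of immune granules, stood at -0.24 ± 0.10 in the authors' deposited table (adjusted p = 0.0392; mean normalized count 1440). Its summed inputs were 904 in toosendanin cells and 1513 in control cells, a centred log2 ratio of -0.25 ± 0.06 (counting error only). This call did not hold at a threshold of 0.01.

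CTSH, an aminopeptidase, stood at 0.39 ± 0.36 in the authors' deposited table (adjusted p = 0.464), so its 95% interval runs from -0.31 to 1.08. Its mean normalized count of 3506 would usually bring a smaller error. The 890 genes with a mean within 20% of it, itself included, had a median standard error of 0.0788 in the authors' deposited table, and 98.31% of them lay below that of CTSH. Its summed inputs, 4298 in toosendanin cells and 5324 in control cells, gave a centred log2 ratio of 0.19 ± 0.03, but that error holds counting only and not the spread between libraries. The standard errors of the other 9 exceeded 27.08% to 85.84% of those of genes of like mean in the authors' deposited table.

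**Figure D1:**
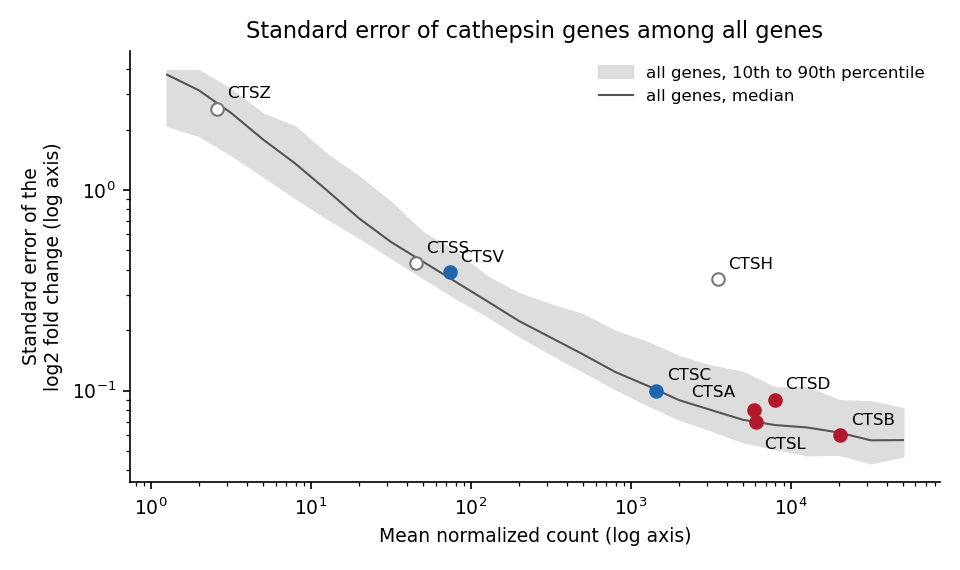
Standard error of the deposited log2 fold change against the mean normalized count (both axes logarithmic) for 9 cathepsin genes, over the median (line) and the range from the 10th to the 90th percentile (grey) of all genes in bins of mean. Filled points passed an adjusted p of 0.05 (red higher, blue lower), and CTSF, with a mean of 0.8303, lies outside the plot. CTSH stands far above the band at 0.36, while the others lie within it.

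CTSS, which trims the invariant chain in antigen-presenting cells, had a mean normalized count of 45.05 and stood at 0.09 ± 0.43 in the authors' deposited table (adjusted p = 0.913). A change within its 95% interval, from -0.75 to 0.94, was not detectable at this depth. CTSZ, a carboxypeptidase, had a mean of 2.569 and stood at -1.09 ± 2.54 in the authors' deposited table (adjusted p = 0.816). CTSF, another cysteine cathepsin, had a mean of 0.8303, a value that 84 listed genes share exactly, and a log2 fold change of 3.38 ± 3.97 in the authors' deposited table. A change of CTSZ or CTSF was not detectable at this depth. None of these 3 genes had an m6A region in the table.

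Ordered by change, CTSF came first by its fitted value, then CTSB, CTSA, CTSD, CTSL, CTSH, CTSS, CTSC, CTSZ and CTSV. The order comes from the same fold changes, so every step is positive by construction. The intervals treat genes as independent and are not corrected for the 9 steps. Of these 9 steps, 2 had a 95% interval above 0. CTSB exceeded CTSA by 0.30 ± 0.10 and CTSA exceeded CTSD by 0.35 ± 0.13 on the log2 scale, from the authors' deposited table. By the centred input ratios CTSA, at 0.87 ± 0.11, did not exceed CTSD, at 0.94 ± 0.04 (counting error only). CTSD exceeded CTSL by 0.21 ± 0.11, with an interval from -0.01 to 0.44, so these neighbours were not separated. With CTSZ set aside, CTSC exceeded CTSV by 1.60 ± 0.40, with an interval from 0.82 to 2.39, from the authors' deposited table; this pair was added after the values were seen. When all standard errors were multiplied by 1.5, 0 of the 9 steps stood apart.

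**Figure D2:**
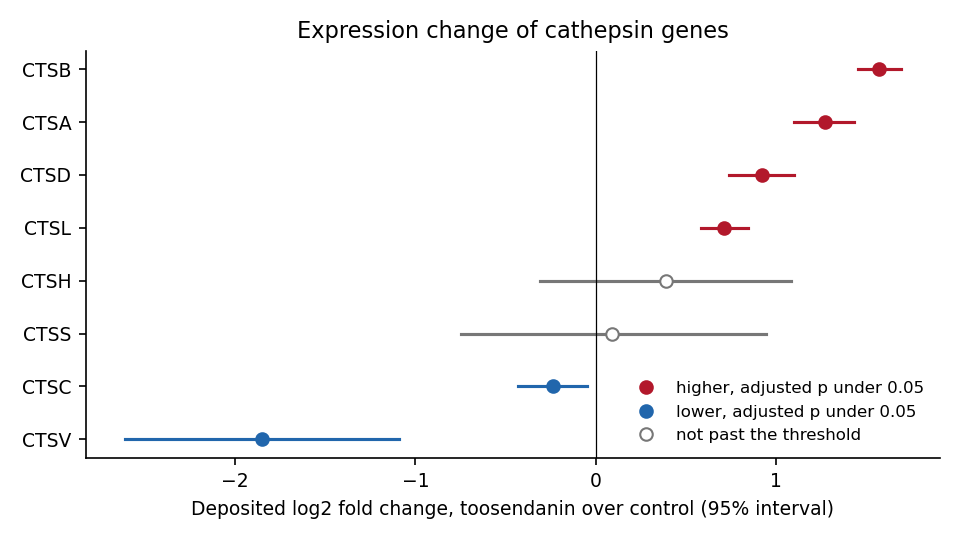
Deposited log2 fold change of toosendanin over control (x axis) with its 95% interval for the 8 cathepsin genes with a mean normalized count of at least 10. Red and blue points passed an adjusted p of 0.05 and open points did not; CTSB at 1.57 is highest and CTSV at -1.85 lowest.

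Of the 5 cathepsin genes outside the 10, CTSO, a little-studied cysteine cathepsin, was lower at -2.21 ± 0.52 in the authors' deposited table (adjusted p = 0.00013; mean normalized count 36.42). CTSK, the collagen-cutting protease of osteoclasts, stood at 0.16 ± 0.40 with a mean of 48.49 in the authors' deposited table and did not pass (adjusted p = 0.828). CTSE, CTSG and CTSW were listed at a mean of 0.

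Many enzymes that work beside cathepsins rose. The shares called are to be read against 31.4% of all genes tested in either direction, or 15.7% higher. Among genes in the upper 50% of means these shares were larger, with 23.6% higher and 24.4% lower. All 3 partners of CTSA rose, led by NEU1, which cuts sialic acid, at 1.43 ± 0.07 in the authors' deposited table, with GLB1 at 0.49 ± 0.11 and GALNS, a sulfatase, at 0.52 ± 0.17. Of 7 other lysosomal proteases and peptidases with an adjusted p, 3 rose and 0 fell by the authors' deposited table, with a median of 0.27. These were TPP1, which removes tripeptides, at 1.36 ± 0.10, and the carboxypeptidases SCPEP1 at 0.89 ± 0.10 and CPVL at 0.46 ± 0.07 in the authors' deposited table. LGMN, the legumain that cleaves several cathepsins during their maturation, stood at -0.01 ± 0.11 in the authors' deposited table and did not pass (adjusted p = 0.971).

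Of 27 other lysosomal hydrolases, 17 rose and 1 fell by the authors' deposited table, with a median of 0.44. ASAH1, the acid ceramidase, stood at 2.14 ± 0.07 and LIPA, the acid lipase, at 1.01 ± 0.09 in the authors' deposited table. The gene that fell was RNASET2, a ribonuclease, at -0.67 ± 0.17 in the authors' deposited table, named after its value was seen. ACP5, an acid phosphatase listed at 6.84 ± 2.18 in the authors' deposited table, had a mean of 9.1.

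Genes that tag and carry cathepsins were raised in most cases. Of 14, 8 rose and 1 fell by the authors' deposited table, with a median of 0.38. IGF2R, the large mannose 6-phosphate receptor, stood at 0.64 ± 0.04, CLN8, which moves lysosomal enzymes out of the endoplasmic reticulum, at 0.91 ± 0.09, the adaptor GGA2 at 0.49 ± 0.06 and the retromer subunit VPS35 at 0.34 ± 0.05 in the authors' deposited table. The gene that fell, GNPTAB, encodes catalytic subunits of the enzyme that starts the mannose 6-phosphate tag and stood at -0.28 ± 0.11 in the authors' deposited table (adjusted p = 0.0288).

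Few inhibitors were counted. Of 12 cystatins and other cathepsin inhibitors 6 were listed at 0, and of the 5 with an adjusted p 2 rose and 0 fell by the authors' deposited table (40% called, against 31.4% of all genes tested), with a median of 0.08. Both that rose are cystatins of the cytosol, CSTB at 0.82 ± 0.13 and CSTA at 1.19 ± 0.36 in the authors' deposited table. CST3, the main secreted cystatin, had a mean of 5464 and did not pass, at -0.03 ± 0.06 in the authors' deposited table (adjusted p = 0.77).

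Of the 4 measured genes among the TFEB family and its regulator FLCN, 2 rose and 0 fell by the authors' deposited table. In the authors' deposited table FLCN, folliculin, stood at 1.39 ± 0.11 and TFE3 at 0.28 ± 0.08 and both passed, while TFEB, at -0.25 ± 0.19 there, did not (adjusted p = 0.343).

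**Figure D3:**
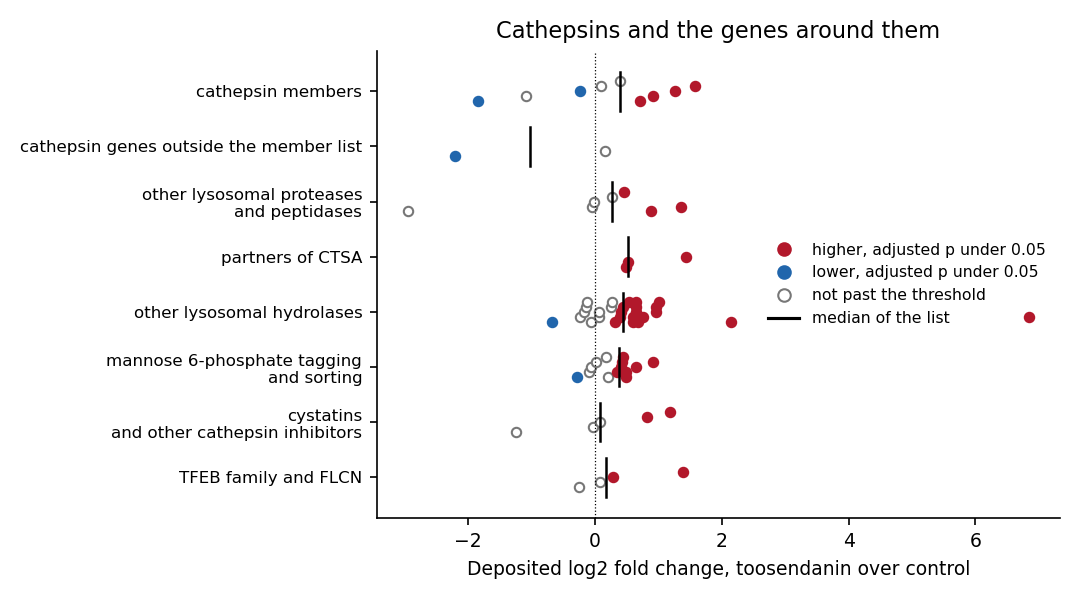
Deposited log2 fold change of toosendanin over control (x axis) for the 9 cathepsin genes with an adjusted p and for 7 lists of genes around them; each point is a gene, red or blue where the adjusted p was under 0.05, and black bars are list medians. Medians of the hydrolase and sorting lists lie at 0.44 and 0.38, beside 0.39 for the cathepsins; the point at 6.84 is ACP5, with a mean of 9.1.

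In m6A, many cathepsin regions were ones in which the antibody recovered less RNA than over regions as a whole. IP over input, scaled to the summed counts of all regions, was below the all-region ratio, with a 95% counting interval that leaves out equality, in 15 of 25 regions in toosendanin cells, against 29.3% of all regions, and in 15 of 25 in control cells, against 34.0% of all regions. It was above that ratio in 2 regions in toosendanin cells, against 23.2% of all regions, and in 6 in control cells, against 26.9%. Of these 6, CTSC regions 3 and 4 had only 2 and 3 input counts in control cells. In toosendanin cells they stood at 0.74 and 0.96 on the log2 scale, with few counts and intervals that include equality. Regions of the same gene share its RNA and are not independent. The median log2 IP over input was -0.60 in toosendanin cells and -0.50 in control cells, beside -0.022 in toosendanin cells and -0.039 in control cells over all regions. Regions are numbered within a gene in the order of the table, which gives no coordinates.

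Among the regions with an FDR, enrichment was strongest in CTSL region 2, with 5377 IP and 2586 input counts in toosendanin cells and 4544 IP and 2081 input counts in control cells. Its log2 IP over input was 0.79 in toosendanin cells (95% counting interval 0.73 to 0.86) and 0.82 in control cells (0.74 to 0.89). CTSL region 1 was near the all-region ratio, at 0.06 in toosendanin cells and -0.17 in control cells. CTSC held enriched regions beside depleted ones: region 2 stood at 0.99 in toosendanin cells and 0.65 in control cells, and region 5 at -0.77 in toosendanin cells and -0.95 in control cells. Low values were those of both CTSD regions, at -1.46 and -1.36 in toosendanin cells and -1.66 and -1.36 in control cells, and of CTSB region 1, at -1.44 in toosendanin cells and -1.87 in control cells.

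**Figure D4:**
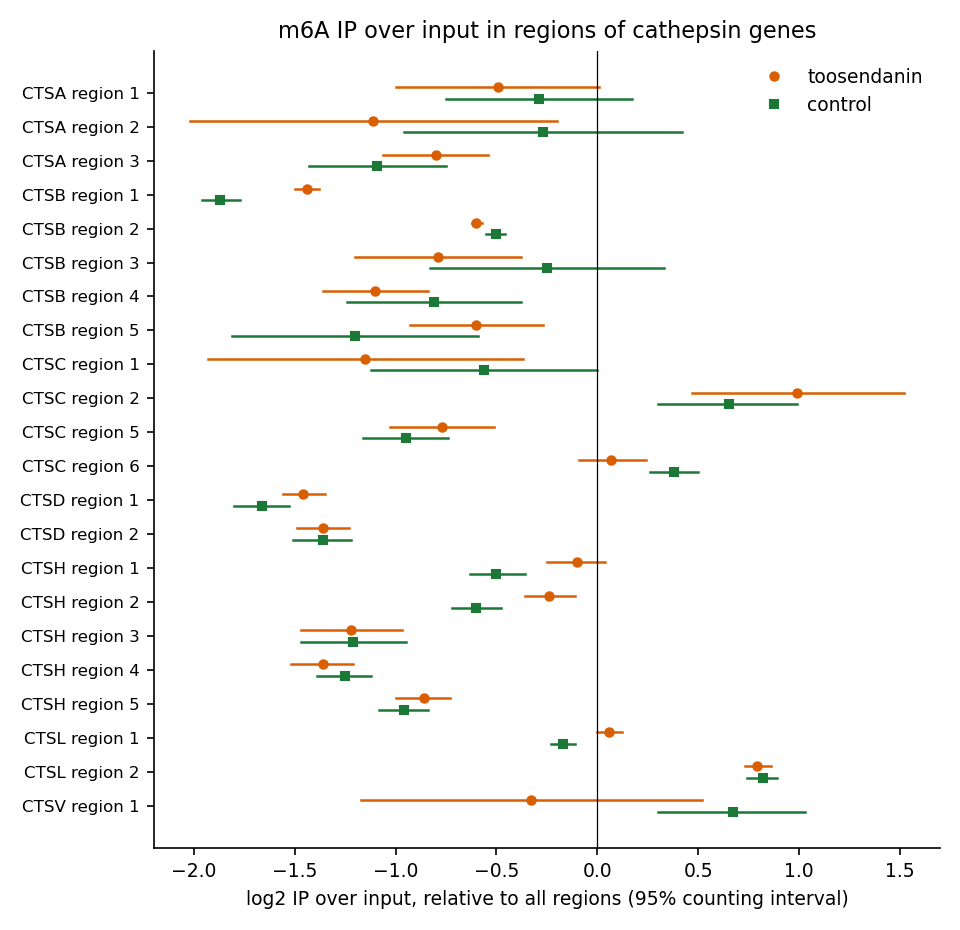
log2 of IP over input counts relative to the ratio over all regions (x axis) in toosendanin cells (orange circles, upper) and control cells (green squares, lower) for the 22 regions with at least 10 counts in each of the 4 sums; bars are 95% counting intervals. Most points lie left of 0, while CTSL region 2 and CTSC regions 2 and 6 lie right of it in both conditions. CTSC region 6 is close to 0 in toosendanin cells, at 0.07.

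The change of m6A was small in most regions and went in both directions. By the FDR of the authors' deposited table, under 0.05, 4 of the 15 cathepsin regions with an FDR were called (26.7%), against 8.95% of 24688 regions tested. Of these 2 were higher, against 2.71% of regions tested, and 2 were lower, against 6.24%. Another 10 regions have no FDR. The error of every m6A value here is the counting error of the summed counts, so the spread between libraries is not in it. Calls therefore depend on depth, and the 4 called regions had total counts above 76.8% to 98.9% of those of regions tested. The share called was not compared with regions of like depth. The median size of change of the 15 regions was 0.15 on the log2 scale in the authors' deposited table, beside 0.16 over all regions tested.

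CTSB carried called regions of opposite direction. Region 1 had 3371 IP and 7640 input counts in toosendanin cells and 1219 IP and 3590 input counts in control cells, and its IP over input was 0.30 ± 0.06 higher on the log2 scale in the authors' deposited table (FDR = 9.06e-06). Region 2, which held 71.76% of the control input counts of the gene, had 17490 IP and 22031 input counts in toosendanin cells and 8452 IP and 9665 input counts in control cells. It stood at -0.20 ± 0.03 in the authors' deposited table (FDR = 1.91e-12), but at -0.14 when centred on the median of all regions and -0.09 when scaled to total counts (adjusted p = 0.00799), against 0.38 and 0.43 for region 1. Region 1 minus region 2 came to 0.50 ± 0.06, with a 95% counting interval from 0.38 to 0.62; this difference was taken after both values were seen. Among 6337 genes with at least 2 regions that have an FDR, 103 held calls in both directions (1.63%). That share covers genes of all depths and was not taken among genes counted as deeply as CTSB.

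Both CTSB calls rest on large counts, above 94.9% and 98.9% of regions tested, and remained when the statistic was widened by the spread of all regions. That setting called 1 cathepsin region higher and 1 lower, against 0.916% and 2.03% of regions tested. It used the same factor, 1.31, for every region whatever its depth, so spread between libraries at the depth of CTSB was not tested. IP over input stayed below the all-region ratio in both regions and both conditions. Summed over its 5 regions, CTSB had 730.8 CPM in IP in toosendanin cells and 232.3 CPM in control cells, beside 1249 CPM in input in toosendanin cells and 394.6 CPM in control cells. On that total-count scale, on which regions 1 and 2 stood at 0.43 and -0.09, the summed IP over input moved by -0.01 ± 0.02 (log2), with an interval from -0.06 to 0.04. This near-zero total belongs to that scale and is not the sum of the deposited region values.

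CTSH region 2 was higher, at 0.28 ± 0.09 in the authors' deposited table (FDR = 0.0225), with 1017 IP and 999 input counts in toosendanin cells and 1065 IP and 1302 input counts in control cells. Region 1 stood at 0.26 ± 0.10 and did not pass (FDR = 0.0874), and regions 3, 4 and 5 stood between -0.21 and -0.03 in the authors' deposited table. CTSC region 6 was lower, at -0.37 ± 0.10 in the authors' deposited table (FDR = 0.00713), with 671 IP and 532 input counts in toosendanin cells and 1420 IP and 881 input counts in control cells. It is the called region with more IP than the all-region ratio in control cells, at 0.38, and stood at 0.07 in toosendanin cells. With the statistic widened by the spread of all regions, CTSH region 2 (adjusted p = 0.227) and CTSC region 6 (adjusted p = 0.13) no longer passed.

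Both CTSL regions missed the threshold, at 0.11 ± 0.04 (FDR = 0.0918) and -0.10 ± 0.05 (FDR = 0.264) in the authors' deposited table. The CTSD regions stood at 0.07 ± 0.09 and at -0.14 ± 0.10 by the authors' deposited table (FDR = 0.716 and 0.451). For CTSA, region 3 stood at 0.15 ± 0.22 in the authors' deposited table (FDR = 0.755), and its other regions have no FDR. CTSV region 1 held 22 IP and 23 input counts in toosendanin cells and 181 IP and 92 input counts in control cells, and has no FDR. When log2 ratios were scaled to total counts instead, CTSH region 1 and CTSL region 1 also passed as higher (adjusted p = 0.00217 and 5.56e-06), which made 4 higher and 2 lower in place of 2 and 2, against 7.36% and 2.29% of regions tested on that scale.

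Summed over the regions of a gene, m6A can be set beside expression. CTSB and CTSA rose in RNA with summed IP over input changes of -0.01 ± 0.02 and -0.02 ± 0.17, CTSD with 0.12 ± 0.07 and CTSL with 0.15 ± 0.03 (log2, scaled to total counts, counting error only). CTSH stood at 0.19 ± 0.05, CTSC at -0.21 ± 0.08 and CTSV at -0.42 ± 0.40 on that scale. This sum over regions was added after the data were seen.

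**Figure D5:**
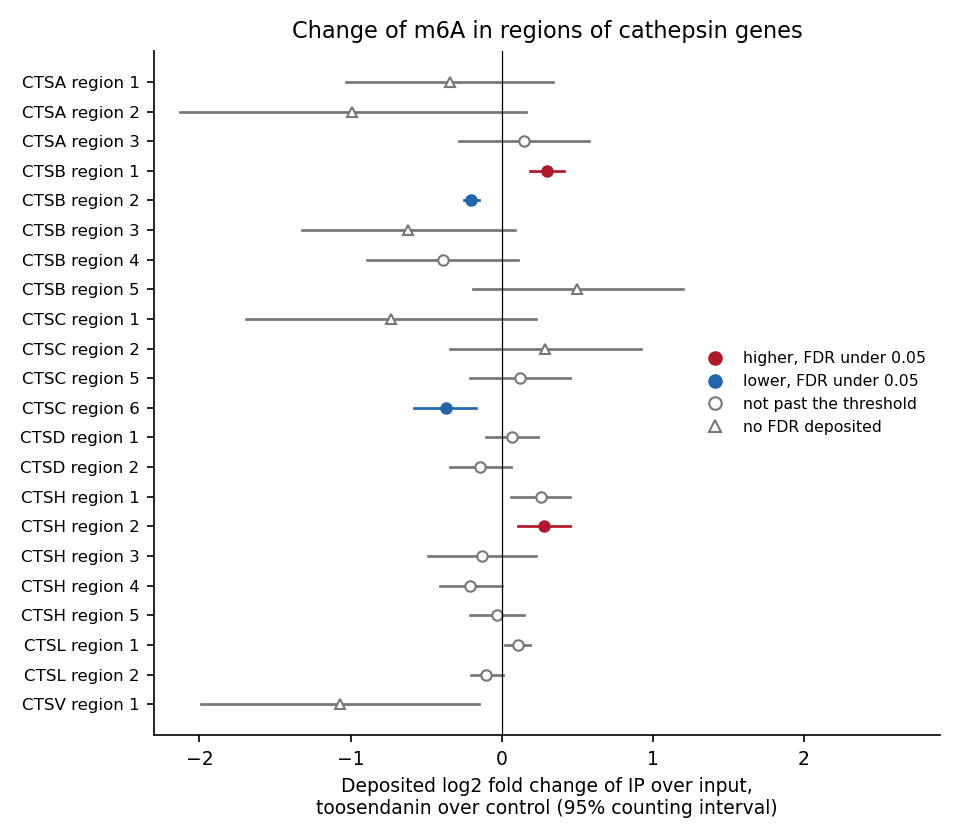
Deposited log2 fold change of IP over input, toosendanin over control (x axis), with 95% counting intervals for the 22 regions with at least 10 counts in each of the 4 sums. Filled points passed an FDR of 0.05 (red higher, blue lower), open circles did not, and triangles have no FDR; CTSB region 1 at 0.30 and region 2 at -0.20 lie on opposite sides of 0.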

How the data were processed

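The submitters' processing notes list HISAT2, StringTie and DESeq, with no versions. Per the labels' protocols the kit is stranded and carries molecular identifiers. The genome build, annotation, counting settings and m6A caller are not stated. Per the file headers, the authors deposited DESeq2 results: a mean normalized count (a signal over libraries), a log2 fold change, its standard error, a Wald score and p-values before and after adjustment. The m6A table, per the file headers, holds whole-number counts pooled by the authors for each condition, a log2 fold change, a p-value and an FDR. In 99.5% of 45805 regions, the error implied by the deposited m6A p-value was within 1% of the Poisson counting error.

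A positive change was read as higher after toosendanin, because the deposited log2 fold change and the summed input ratio had a Pearson r of 0.94 across 7947 genes in the upper 50% of means (genes are not independent replicates). Nothing was refitted. Input ratios were summed over the regions of a gene and centred on the median of 12384 genes. IP over input was scaled to summed counts over all regions, and 95% intervals hold counting error only. Regions that carry more than 1 gene label, 917 in number, were left out of sums over genes. Calls used an adjusted p or FDR under 0.05. All 10 cathepsins and their regions were named, with up to 4 genes per list by smallest adjusted p; others are marked in the text, and 2 genes that this rule takes are not reported here. The members and lists were chosen with earlier results of these data known. The Poisson test used in the alternatives was tested on simulated data. Python 3.11.15, numpy 2.4.6, pandas 2.3.3, scipy 1.17.1 and matplotlib 3.10.9 were used.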

Additional observations from a re-analysis of the deposited data

How the results depend on the processing

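The higher cathepsins numbered 4 also at an adjusted p under 0.01, with adjustment over every gene with a p-value and among the upper 50% of means, and 2 of them changed at least 2-fold. The 2 lower ones were 1 at 0.01, 1 at 2-fold and 1 in the upper 50%, which holds no CTSV. Among all genes tested 11.9% were called in each direction at 0.01, and 23.6% higher and 24.4% lower in the upper 50%. Summed inputs gave the deposited direction in all 7 genes with regions, but not the step from CTSA down to CTSD. For m6A, the 2 higher regions became 1 at an FDR under 0.01, 4 when centred on the median or scaled to total counts, 1 with the widened statistic, and 0 at 1.5-fold or among regions whose IP exceeded input in either condition after scaling to total counts (all regions 1.5% at 0.01, 4.57% centred, 0.34% at 1.5-fold and 0.618% where IP exceeded input). The 2 lower regions became 1 with the widened statistic, 1 where scaled IP exceeded input and 0 at 1.5-fold; the last restriction on IP kept 8 of 25 regions (all regions lower 1.13% at 1.5-fold, 3.6% where IP exceeded input). Separate neighbours numbered 2, also at 99%, and 0 with standard errors multiplied by 1.5. The cause was not tested. No paired analysis was possible because values per library were not in the tables used here, so leaving out replicates and the replicate block were not run.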
